A study of Drosophila melanogaster with 9 samples.

Results

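MicroRNA (miRNA) loci were examined as accessible or closed chromatin in the Drosophila melanogaster ovary and in a cell line derived from it. The members were all annotated genes whose symbol begins with mir- and whose transcript is a miRNA precursor, the hairpin from which the mature miRNA is cut, which gave 262 of 18279 annotated genes. The assay was ATAC-seq, which reads out the places where a transposase can reach the DNA, and each of the 9 libraries was represented by its own list of peaks. A hairpin counted as open in a library if any peak overlapped the hairpin or the 1 kb on either side of it. Scoring was possible for 260 hairpins, and the remaining 2, mir-10404-1 and mir-10404-2, lay on a ribosomal DNA contig on which no list held a peak. Because many hairpins are close neighbours, the 260 windows formed 206 separate loci, of which 26 held more than 1 hairpin and the largest held 8.

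The samples were cells grown from ovarian somatic tissue (OSCs), which derive from follicle cells and include no germ cells, either wild type (2 libraries) or with l(3)mbt deleted (Δl(3)mbt, 2 libraries), and whole ovaries of w1118 flies (2 libraries of 6 ovaries) and of vas-GFP flies, which carry an EGFP tag at vas (3 libraries, of 6, 10 and 30 ovaries). Each OSC genotype was 1 cell line, so a difference between the genotypes is also a difference between 2 lines, and the age of the flies was not given in the sources used here. A whole ovary holds germ cells together with follicle, muscle and other somatic cells, so that fewer cells of a type and less open chromatin per cell cannot be told apart in an ovary library. The study describes its replicates as coming from distinct samples but does not say whether these were separate cultures or separate groups of flies, and p-values measure the spread between these libraries.

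A miRNA gene is transcribed as a long primary transcript. Drosha and its partner Pasha release the hairpin in the nucleus, Dicer-1 with Loquacious cuts the hairpin to a duplex, and 1 strand is loaded into AGO1, which represses messenger RNAs that pair with the seed, bases 2 to 8 of the mature miRNA. Many hairpins lie in introns of protein-coding genes and share the promoter of the host, while others lie in non-coding transcripts with a promoter of their own. Mirtrons are short introns whose hairpin is made by splicing without Drosha. In the fly ovary miRNAs are known to act in germline stem cell division, in border cell migration and in eggshell formation. Accessibility next to a hairpin is not a measure of the mature miRNA.

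The mature sequences of the hairpins to which the results below return are shown first, with the seed in capitals, to make plain which of them share a seed and so a set of potential targets. They were read from the RefSeq annotation of the Release 6 genome (dm6), in which 205 scored hairpins were looked up and all 205 had a mature product. The other 55 were not looked up and are in no count of shared seeds, mir-6-1 to mir-6-3 and mir-308 of the K box family among them. The seed AUCACAG, which pairs with the K box of target messenger RNAs, was shared by 9 of the 205 hairpins, and the seed CUUUGGU by 3.
mir-2a-1 3p: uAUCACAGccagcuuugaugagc
mir-2a-2 3p: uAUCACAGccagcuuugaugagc
mir-2b-1 3p: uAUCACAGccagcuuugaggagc
mir-2b-2 3p: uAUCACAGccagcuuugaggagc
mir-13a 3p: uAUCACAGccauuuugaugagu
mir-11 3p: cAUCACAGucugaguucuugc
mir-9a 5p: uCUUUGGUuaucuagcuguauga
mir-9b 5p: uCUUUGGUgauuuuagcuguaug
mir-9c 5p: uCUUUGGUauucuagcuguaga
mir-79 3p: uAAAGCUAgauuaccaaagcau
mir-306 5p: uCAGGUACuuagugacucucaa
mir-279 3p: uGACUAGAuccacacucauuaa
mir-996 3p: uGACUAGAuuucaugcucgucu
mir-980 3p: uAGCUGCCuugugaagggcuua
mir-4968 5p: uAGCUGCCacgguuuguugcuu
mir-285 3p: uAGCACCAuucgaaaucagugc
mir-998 3p: uAGCACCAugagauucagcuc
mir-ban 3p: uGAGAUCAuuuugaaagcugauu

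The libraries differed in the length of their peak lists, and replicate 1 of wild-type OSCs stood apart. It held 59420 peaks against 22037 in replicate 2, while the Δl(3)mbt lists held 36659 and 27067 and the ovary lists 16588 to 24890. Of the hairpins open in either wild-type OSC library, 41.7% were open in both, against 60.6% in Δl(3)mbt OSCs, 70.8% in vas-GFP and 90.6% in w1118 ovaries. The local background most often found under a peak, which grows with depth, was 8.93 to 19.1 in OSCs and 3.09 to 6.68 in ovaries, and the median pileup at the summits of the hairpins' peaks was 36 to 105 fragments. Read totals were not used here. Of 8 germline marker genes that were matched, 7 were open at their 5′ end in all 5 ovary libraries and 3 in all 4 OSC libraries. AGO3 was open in no OSC library, while bgcn was open in 3 OSC libraries and in no ovary library. By the rank test described below, vas and zpg were lower in ovaries (−41.7 and −12.0 points, adjusted p = 0.0424 for both, exact permutation test). No germline marker passed as higher, with aub and AGO3 at 46.1 and 40.7 points (adjusted p = 0.0643 for both, exact permutation test). Of 7 follicle cell markers, 6 were open in all OSC and 6 in all ovary libraries, traffic jam (tj) and Fas3 among them. Of 5 hemocyte markers 1, Col4a1, which follicle cells also express, was open in all 9 libraries, 1, He, in none, and the other 3 in 1 to 3 libraries each. The 5′ end of l(3)mbt itself held a peak in all 9 libraries, of 4.01- and 6.30-fold enrichment in Δl(3)mbt and 3.18- and 4.26-fold in wild-type OSCs, so these lists do not check the genotype.

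The first question was how many miRNA hairpins lay in accessible chromatin. In ovaries 82 to 96 of the 260 hairpins were open, which is 34.5% ± 2.11 (SD, n = 5). In OSCs the numbers were 190 and 82 for wild type and 131 and 89 for Δl(3)mbt, in the order of the lengths of the lists. Cut to the same number of strongest peaks, 16588 in each library, the lists left 70 to 92 hairpins open in OSCs and 80 to 84 in ovaries. At that length the share of open hairpins was 29.7% ± 3.91 (SD, n = 4) for OSCs and 31.6% ± 0.688 (SD, n = 5) for ovaries, which differ by less than the spread among OSC libraries. The 5′ ends of the other 18017 genes, taken with 1 kb on either side, were open more often than hairpins in every library, in 44.8% to 78.7% of cases against 31.5% to 73.1% in the full lists.

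**Figure D1:**
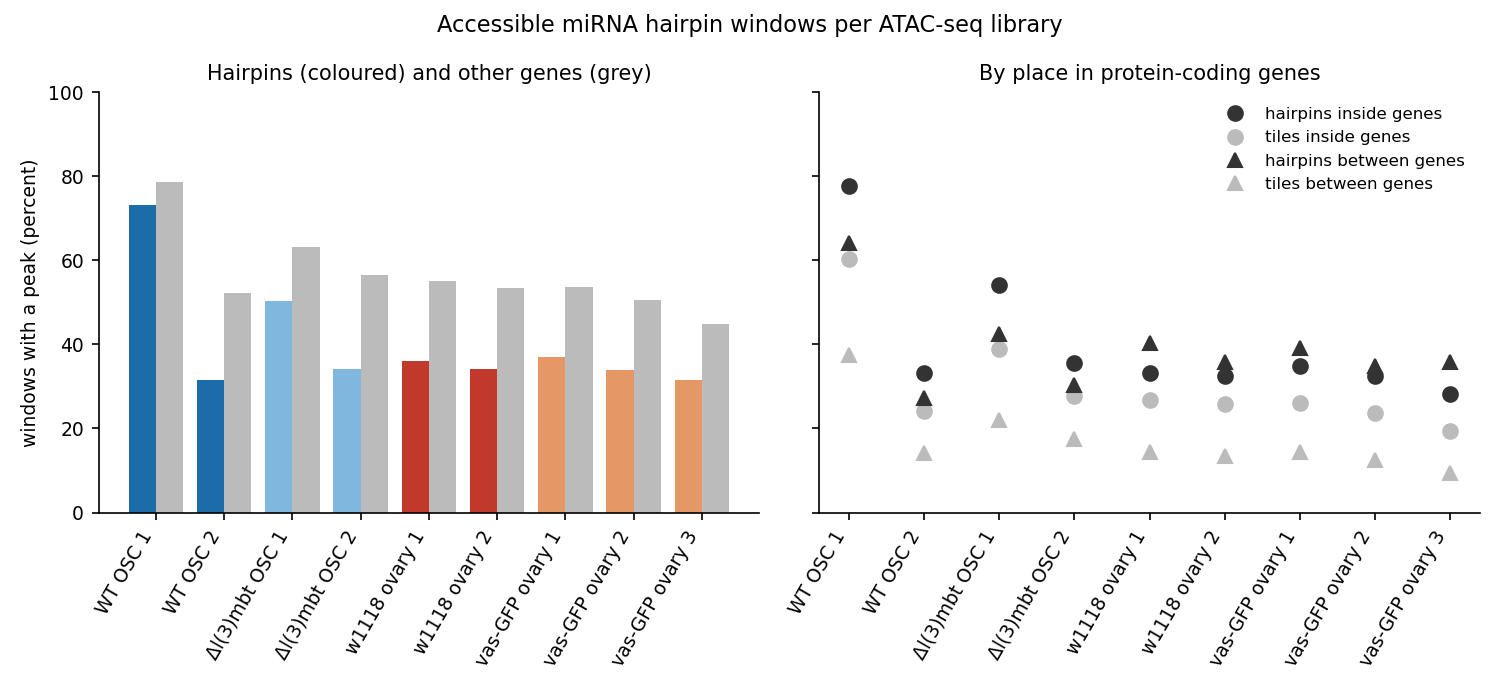
Percent of windows with a peak in each library. The left bars give the 260 hairpins in colour and the 5′ ends of 18017 other genes in grey, and the right points give hairpins inside and between protein-coding genes beside genome tiles of 2092 bp in the same places. Wild-type OSC replicate 1 stands above the rest in every set, and hairpins between genes lie above the tiles between genes in all 9 libraries.

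Some hairpins were open in every library and others in none. A peak was called in all 9 libraries at 50 hairpins (19.2%, against 38.5% of the other genes' windows) and in none at 54 (20.8%, against 15.9%). Another 50 were open in 1 library only, which was wild-type OSC replicate 1 in 45 cases, and without that library 99 hairpins were open in none. Both counts include neighbours that share a peak: the 50 hairpins open everywhere came from 46 loci and the 54 closed ones from 43. At 16 of the 26 loci with several hairpins, all hairpins of the locus were open in the same number of libraries.

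**Figure D2:**
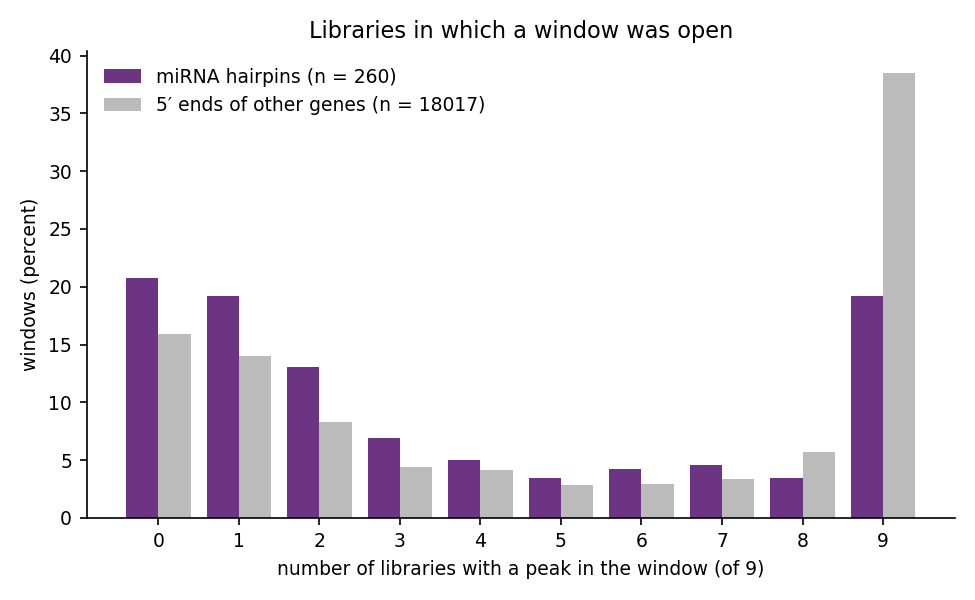
Percent of windows (vertical axis) by the number of libraries, of 9, in which the window held a peak (horizontal axis), for the 260 miRNA hairpins and the 5′ ends of 18017 other genes. Hairpins were spread towards 0 to 3 libraries, and 19.2% of them against 38.5% of other genes were open in all 9.

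Hairpins were then separated by their place. Of the 260, 166 lay inside a protein-coding gene, 92 between such genes and 2 across the edge of one. The annotation placed 122 hairpins in introns, followed by coding exons (23), 3′ UTRs (15) and 5′ UTRs (8). In ovaries 32.3% ± 2.43 (SD, n = 5) of the hairpins inside genes and 37.2% ± 2.36 (SD, n = 5) of those between genes were open. Tiles of the genome of the same length as a window were open in 24.3% ± 2.93 of cases inside and in 12.9% of cases between genes in the same 5 libraries (SD, n = 5). In OSCs 50.2% ± 20.6 (SD, n = 4) of hairpins inside and 41.0% ± 16.7 (SD, n = 4) of those between genes were open, against 37.7% and 22.8% of tiles. Without wild-type replicate 1 the mean over the other 8 libraries was 35.5% inside and 35.7% between genes. These shares count every hairpin, so a peak shared by neighbours is counted more than once. The 82 to 96 hairpins open in an ovary library came from 61 to 76 loci. Shares by locus were not computed for hairpins inside and between genes, so how far the difference rests on a few clusters is not shown.

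The nearness of a promoter went with openness. In 66 windows there was an annotated transcription start site (TSS) of a protein-coding gene, and 33 of these hairpins were open in all 9 libraries and 4 in none. Of the 194 windows without a TSS, 17 were open in all 9 libraries and 50 in none. All 8 hairpins in 5′ UTRs were open in some library, and 6 of them in all 9. Hairpins on the strand opposite to their host were closed in every library in 14 of 30 cases, and those on the same strand in 18 of 136. Of the 92 hairpins between protein-coding genes, 43 lay inside an annotated non-coding RNA gene, and 8 of these were open in all 9 libraries and 12 in none.

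Of the hairpins open throughout, 8 lay between protein-coding genes and had no coding TSS within the window. They were named after their values had been seen. mir-8 (FBgn0262432), known for its part in growth through insulin signalling in the fat body, was the strongest of them. Its fold enrichment was 9.82, 8.80, 9.43 and 10.7 in the wild-type and Δl(3)mbt OSC libraries and 13.2, 14.8, 14.2, 13.6 and 16.5 in the ovary libraries, so that all ovary values were the higher, while relative to the other peaks of each library the rank did not differ past the threshold (−4.61 points by the test described below, adjusted p = 0.177, exact permutation test). The summit of its peak lay 816 to 857 bp upstream of the middle of the hairpin in every library, and the hairpin lies in the non-coding gene CR43650. At mir-14, a suppressor of cell death, the peak was of 7.32- to 9.62-fold in OSCs and 9.25- to 9.77-fold in ovaries, 1027 to 1069 bp upstream. mir-ban (bantam), which promotes growth and blocks apoptosis, held weaker peaks of 3.62- to 4.84-fold in OSCs and 2.76- to 4.33-fold in ovaries, 685 to 764 bp upstream, and the groups overlapped. At mir-282 the fold enrichment was 6.41, 4.66, 5.67 and 5.57 in OSCs and 10.7 or more in each ovary library, above every OSC library (rank difference 18.1 points, adjusted p = 0.0842, exact permutation test). mir-277 and mir-34, which lie within 1 kb of each other in CR43459, shared a peak between the hairpins. The others were mir-318, which is abundant in late follicle cells, and mir-279.

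Where the peak lay around a hairpin was described by its summit. Few summits fell on a hairpin: of the 82 to 190 hairpins open in a library, 0 to 8 had the summit of the strongest peak inside the hairpin itself. Among hairpins between genes with no TSS in the window, the summit lay upstream in 58.8% to 86.7% of those open, and in wild-type OSC replicate 2 this was 13 of 15. Inside genes without a TSS the share upstream was 49.1% to 70.8%.

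**Figure D3:**
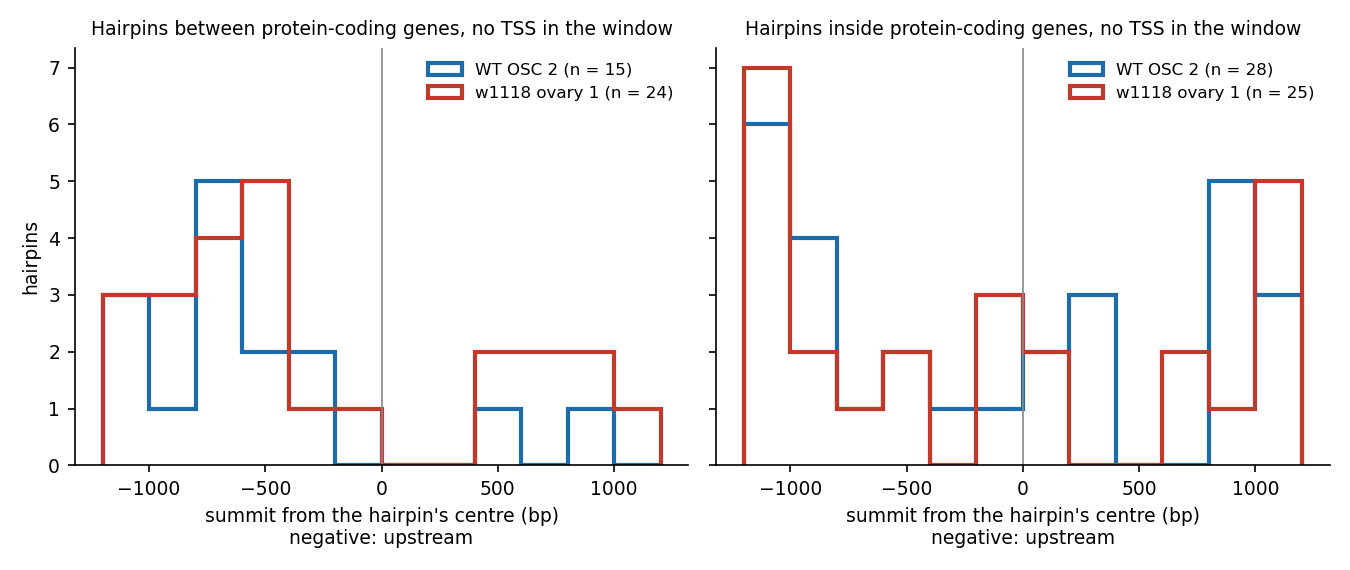
Distance of the strongest summit from the middle of the hairpin in bp (horizontal axis, upstream negative) and number of hairpins (vertical axis) for wild-type OSC replicate 2 and w1118 replicate 1, in windows without a TSS. Summits farther out are counted in the end bars. Between genes 13 of 15 and 17 of 24 summits were upstream, and inside genes 15 of 28 and 15 of 25.

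Most of the highest peaks at hairpins lay near the start of a protein-coding gene. Of the 10 hairpins with the highest mean fold enrichment over all libraries, 7 had a protein-coding TSS in the window. mir-2493 (mean 16.7-fold), in an intron of CG42788, and mir-4968 (15.9-fold), in an intron of the kinase cofactor gene Mob2, led them, followed by mir-4974 (15.5-fold) and mir-2501 (13.7-fold). mir-3645 (13.3-fold), in the myosin light chain gene Mlc-c, mir-4955 (13.1-fold), in the 5′ UTR of the perlecan gene trol, and mir-9374 (12.9-fold), in the 5′ UTR of the nuclear receptor gene Hr39, came next. mir-8 (12.3-fold), mir-92a, in an intron of jigr1, and mir-9388 (11.5-fold) completed them. All 10 held a peak in every library, and 3 of them, mir-2501, mir-3645 and mir-9388, passed the test between ovaries and OSCs described next.

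The second comparison asked which hairpins were more or less accessible in ovaries than in OSCs. Peak strength was compared as a rank, the percent of a library's 16588 strongest peaks that were weaker than the strongest peak of the window, with 0 where none of these overlapped, so that the length of a list did not set it. The 5 ovary and 4 OSC libraries were compared by a two-sided exact permutation test, with Benjamini-Hochberg adjustment over the 10458 windows of hairpins and other genes that were open in at least 4 libraries. Of the 104 hairpins tested, 10 at 7 loci ranked higher in ovaries (10.8% of all windows tested did) and 7 at 5 loci ranked lower (7.95% of all windows tested did), which for hairpins is close to the share of windows in general. The median difference, ovary minus OSC, was 3.46 points for hairpins and 1.15 for all windows. Every hairpin that passed had p = 0.00794, the smallest that the exact test allows, and an adjusted p of 0.0424. No call therefore survived where a library was left out or only wild-type OSCs were used, since fewer splits allow no p as small, and 0 hairpins passed when windows open in at least 1 library were tested (smallest adjusted p = 0.0623, exact permutation test).

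**Figure D4:**
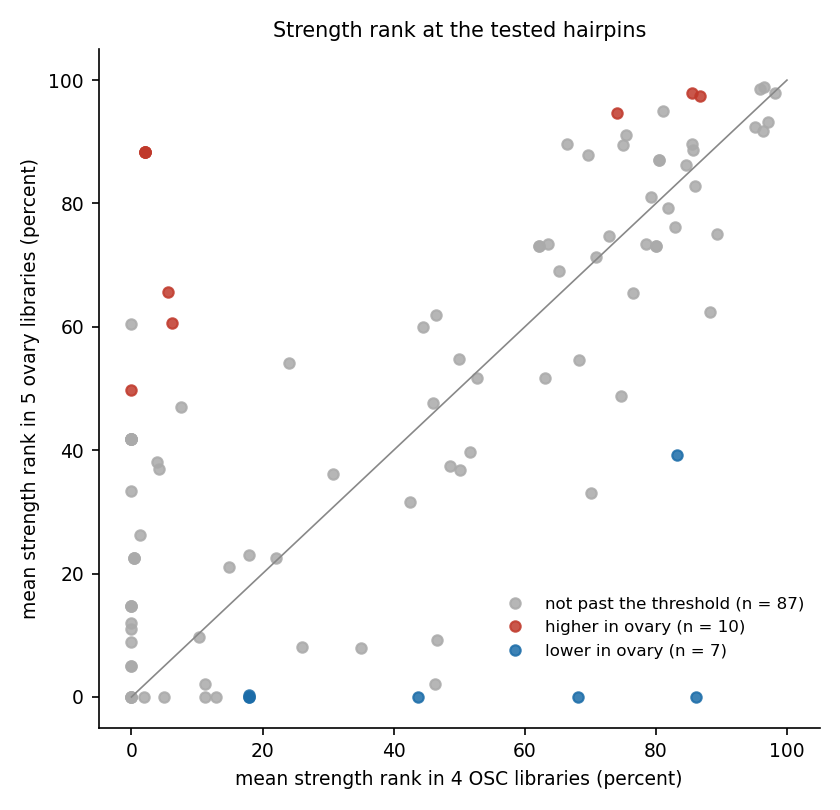
Mean strength rank in 4 OSC libraries (horizontal axis, percent) against 5 ovary libraries (vertical axis, percent) for the 104 tested hairpins. Each point is a hairpin, hairpins that share a peak coincide, the line marks equal ranks, and colours mark the 10 hairpins higher and the 7 lower in ovaries (exact permutation test).

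The largest rise was at the cluster of mir-9c (FBgn0262430), mir-306 (FBgn0262386), mir-79 (FBgn0262452) and mir-9b (FBgn0262413), in an intron of grp, which encodes the checkpoint kinase Chk1. Maternal loss of this cluster has been linked to the number of primordial germ cells. At mir-9c the fold enrichment was 14.3 and 12.7 with w1118 and 15.3, 12.6 and 9.29 with vas-GFP. It was 2.88 and 0 in wild-type and 2.01 and 0 in Δl(3)mbt OSCs, where 0 stands for no peak. All ovary libraries were above all OSC libraries, and the mean strength rank was 88.4 ± 3.97 (SD, n = 5) for the ovary libraries and 2.05 ± 4.11 (SD, n = 4) for the OSC libraries, a difference of 86.3 points (adjusted p = 0.0424, exact permutation test). The 4 hairpins share the peak and count as 1 locus. The ovary peak was at another place than the weak OSC peaks. Its summit lay 80 to 82 bp upstream of the middle of mir-9c in all 5 ovary libraries, while in wild-type replicate 1 it lay 1104 bp and in Δl(3)mbt replicate 1 1192 bp downstream. The stretch from the ovary summit through the hairpin is shown because the summit fell so close to the hairpin, with the hairpin in capitals (dm6, chr2L:16697870-16698035, plus strand, intron of grp).
mir-9c region: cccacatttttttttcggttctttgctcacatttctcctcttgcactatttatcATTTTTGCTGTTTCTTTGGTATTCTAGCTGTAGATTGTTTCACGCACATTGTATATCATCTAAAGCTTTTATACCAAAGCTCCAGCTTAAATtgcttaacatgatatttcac

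Of the 5 hairpins listed as the mir-9 family, 3 were in this cluster, mir-9b, mir-9c and mir-79. They are not all of 1 seed. The seed CUUUGGU was shared by mir-9a, mir-9b and mir-9c. mir-79 3p has the seed AAAGCUA, which a mature product of mir-9a also has, and the seed of mir-4 was not looked up. The other members, mir-9a and mir-4, were not in this cluster. mir-9a, the family member known from sensory organ precursors, held peaks of 2.93- and 1.70-fold in the first replicate of both OSC genotypes and none in the other 7 libraries, and mir-4 of the early embryo cluster held 1 peak of 2.33-fold in wild-type OSC replicate 1.

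At 3 further loci all ovary libraries held a peak and some OSC libraries held none. At mir-4950 (FBgn0263565), between genes on 3R, the fold enrichment was 8.47, 6.57, 6.56, 10.2 and 11.2 in the ovary libraries, and 1.99, 0, 0 and 3.71 in the OSC libraries. The summit lay 466 to 600 bp downstream of the hairpin in ovaries and 576 bp downstream in Δl(3)mbt replicate 2. In wild-type replicate 1 it lay 790 bp upstream, at another peak. No OSC library reached the lowest ovary library, and the mean strength rank was 65.6 ± 19.4 (SD, n = 5) against 5.52 in OSCs, where only Δl(3)mbt replicate 2 was above 0. At mir-980 (FBgn0262266), known to repress the RNA-binding protein gene Rbfox1, the values were 9.23, 7.63, 7.67, 6.15 and 6.72 in ovaries and 2.28, 0, 2.94 and 3.14 in OSCs. The hairpin lies in an intron of CG3777 on the opposite strand, with a TSS of CG3777 and that of ewg, a transcription factor gene, in the window. The strongest summit lay 904 to 1214 bp downstream of the hairpin in ovaries. It lay 904 bp downstream in wild-type OSC replicate 1, and 636 and 654 bp downstream in Δl(3)mbt OSCs. Its mean strength rank was 60.7 ± 6.10 (SD, n = 5) for the ovary libraries and 6.18 ± 11.3 (SD, n = 4) for the OSC libraries. At mir-971 (FBgn0262222), in an intron of rsh, the values were 6.90, 5.42, 7.35, 8.04 and 4.89 in ovaries, and 1 OSC peak of 1.99-fold was called, in wild-type replicate 1. The ovary summits lay 1002 to 1038 bp downstream of mir-971 and the OSC summit 138 bp upstream, so these peaks were not the same. mir-971 did not pass when peaks were ranked by their −log10 q in place of the fold (difference 33.7 points).

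At the other 3 loci that ranked higher in ovaries the peak was strong in every library. mir-9388 (FBgn0283638), near the TSS of Mes2, had 14.9- to 16.5-fold enrichment in ovaries and 5.23- to 7.42-fold in OSCs. mir-2501 (FBgn0262442), in an intron of Nulp1, had 15.4- to 21.9-fold in ovaries and 6.38- to 7.33-fold in OSCs, with the TSS of Nulp1 in the window. mir-3645 (FBgn0263631) had 16.4- to 20.1-fold in ovaries and 5.74- to 8.92-fold in OSCs. The differences in mean strength rank were 20.5, 12.4 and 10.7 points, in that order. The median fold enrichment over all peaks of a list was 5.17 to 5.31 in ovaries and 2.32 to 3.68 in OSCs, which is why the ranks and not the folds were tested.

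**Figure D5:**
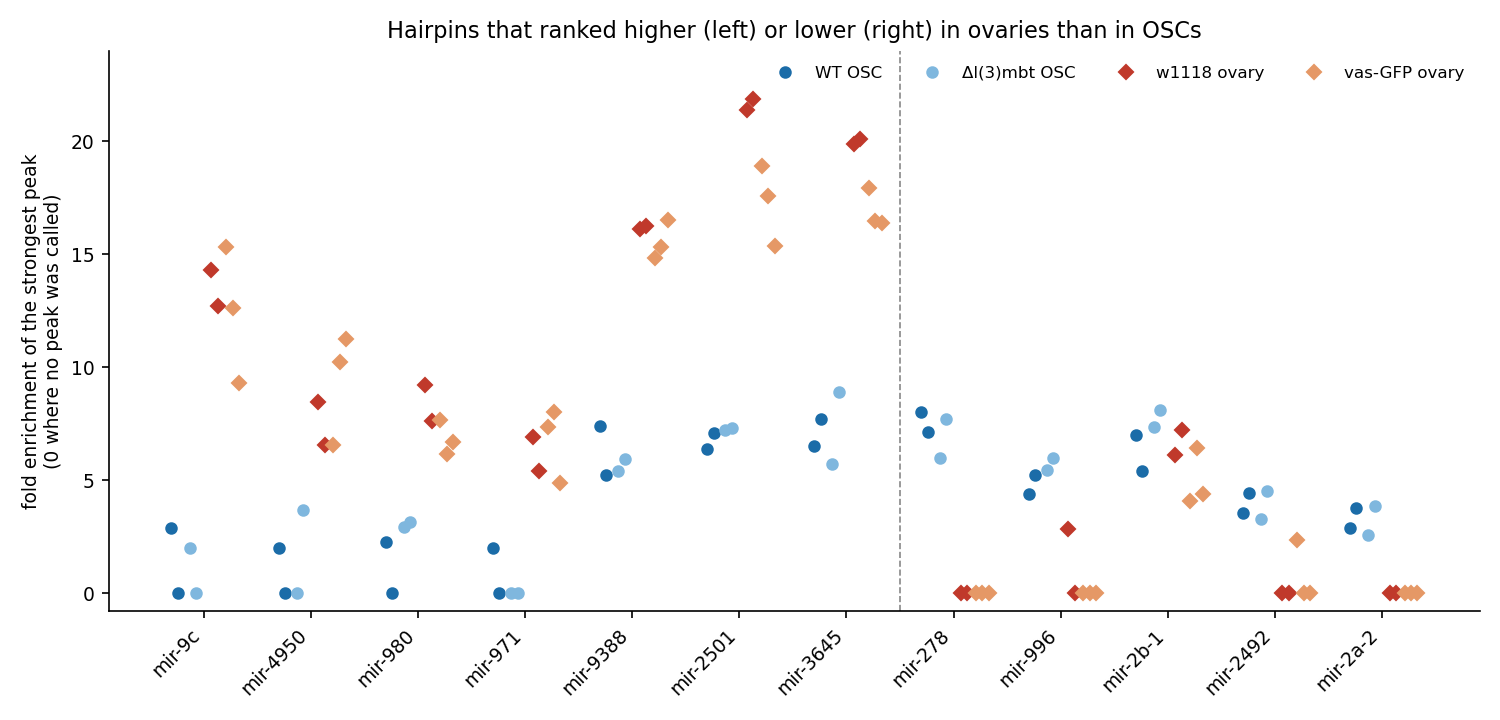
Fold enrichment of the strongest peak in the window (vertical axis, 0 where no peak was called) at 1 hairpin for each of the 12 loci that passed the test. Circles are OSC and diamonds ovary libraries, 1 point per library, and the dashed line separates the 7 loci that ranked higher in ovaries from the 5 that ranked lower. At mir-278 all 5 ovary libraries are at 0 and the OSC libraries at 6.01 and above, and at mir-2b-1 the folds of the groups overlap.

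The largest fall was at mir-278 (FBgn0262403, 2R), which is known to act in energy balance and, like mir-7, in the division of germline stem cells. Its fold enrichment was 6.01 to 7.70 in 3 OSC libraries and highest in wild-type replicate 1, and no peak was called in any of the 5 ovary libraries. The mean strength rank was 86.1 ± 4.27 (SD, n = 4) in OSCs and 0 in every ovary library (adjusted p = 0.0424, exact permutation test). The peak lay 836 to 892 bp downstream of the hairpin, which the annotation places in the 3′ UTR of CG42524. mir-7 itself, in an intron of HnRNP-K, held peaks of 2.53 and 2.72 in wild-type OSCs and of 2.53 in Δl(3)mbt replicate 1, and none elsewhere.

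mir-996 (FBgn0262404) and mir-279, which share the seed GACUAGA and the host transcript CR31044, were followed together. Both are known to limit the signalling that sets the number of migrating border cells. At mir-996 the fold enrichment was 4.40, 5.22, 5.47 and 5.97 in OSCs, and 2.83 in w1118 replicate 1, with no peak in the other 4 ovary libraries. The mean strength rank was 68.1 ± 5.83 (SD, n = 4) in OSCs and 0 in all ovary libraries, a fall of 68.1 points (adjusted p = 0.0424, exact permutation test). At mir-279, upstream in the same transcript, all 9 libraries held a peak, of 5.22- to 6.31-fold in OSCs and 7.93- to 11.1-fold in ovaries, and the ranks did not pass (difference 1.84 points, adjusted p = 0.893, exact permutation test). In 3 OSC libraries the strongest summit of the mir-279 window lay 918 to 924 bp downstream of that hairpin, towards mir-996, while in wild-type OSC replicate 1 and in all 5 ovary libraries it lay 466 to 474 bp upstream. With 2 kb on either side the mir-996 window took in the peak next to mir-279, and the difference turned to 1.84 points.

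The other falls were at hairpins with the K box seed and at mir-2492. mir-2 miRNAs are known to repress the cell death genes reaper, grim and sickle. At mir-2a-1 (FBgn0262377) and mir-2a-2 (FBgn0262460), in an intron of spi, which encodes the EGF receptor ligand Spitz, peaks of 2.87- and 3.79-fold were called in wild-type and of 2.59- and 3.85-fold in Δl(3)mbt OSCs, and no ovary library held a peak. mir-2b-2 (FBgn0262449) in the same intron shared this peak, and its window also reached a separate ovary peak of 2.50- to 3.24-fold, 1093 to 1095 bp upstream, that was too weak to enter most of the equal lists. The mean rank at mir-2a-2 was 17.9 ± 15.9 (SD, n = 4) in OSCs and 0 in ovaries, so these were weak peaks with a wide spread, and the difference at mir-2a-1 and mir-2a-2 did not pass when limma was run on the same ranks. At mir-2b-1 (FBgn0262374), in the 3′ UTR of the kinase gene Btk, the folds of the groups overlapped, with 5.39 to 8.09 in OSCs and 6.12, 7.23, 4.06, 6.43 and 4.40 in ovaries. Relative to the other peaks of each library they did not, since the mean strength rank was 83.2 ± 10.2 (SD, n = 4) in OSCs and 39.2 ± 18.5 (SD, n = 5) in ovaries, and the fall no longer passed on log2 folds over the full lists, with 0.5 kb on either side or with the summit required inside the window.

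mir-2492 (FBgn0262335), in an intron of the kinase gene Drak, held a peak of 3.57- and 4.45-fold in wild-type and of 3.30- and 4.52-fold in Δl(3)mbt OSCs. Among ovaries vas-GFP replicate 1 alone held a peak, of 2.34-fold with its summit 438 bp upstream of the hairpin. The OSC summits lay 170 to 178 bp upstream, and the mean strength rank was 43.7 ± 6.52 (SD, n = 4) in OSCs and 0 in all ovary libraries. The stretch from the OSC summit through the hairpin is shown with the hairpin in capitals (dm6, chrX:11547270-11547517, plus strand).
mir-2492 region: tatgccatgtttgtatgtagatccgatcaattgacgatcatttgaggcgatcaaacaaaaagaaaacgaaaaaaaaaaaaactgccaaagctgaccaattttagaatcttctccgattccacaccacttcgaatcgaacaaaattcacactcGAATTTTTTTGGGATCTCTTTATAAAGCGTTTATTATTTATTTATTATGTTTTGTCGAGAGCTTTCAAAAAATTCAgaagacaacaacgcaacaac

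Peak presence gave shorter lists of hairpins with no overlap between the tissues. A peak in all 5 ovary libraries and no OSC library was found at 4 hairpins of 2 loci (1.54%, against 0.666% of other genes' windows), and the reverse at 5 hairpins of 4 loci (1.92%, against 2.42%). At mir-2491, in an intron that CG42346 and fog share, the ovary values were 4.82 and 5.04 in w1118 and 9.71, 12.5 and 13.8 in vas-GFP. The strains differed in which peak this was, with the summit 142 and 210 bp downstream in w1118 and 1224 to 1236 bp upstream in vas-GFP, and the difference in rank did not pass (60.5 points, adjusted p = 0.0842, exact permutation test). mir-2498, mir-991 and mir-992, neighbours on 2R, shared an ovary peak of 3.59- to 4.82-fold. The OSC-only hairpins were mir-278, mir-2a-1, mir-2a-2, mir-4945 in an intron of sals (2.75- to 3.31-fold) and mir-1001 in the 3′ UTR of tau (1.91- to 4.30-fold). With Δl(3)mbt left aside, 4 hairpins were open in all ovaries and closed in both wild-type libraries (against 0.921% of other genes' windows). These counts depended on single libraries. Without wild-type OSC replicate 1 there were 11 ovary-only hairpins and 23 against wild-type OSCs alone. Without wild-type OSC replicate 2 or Δl(3)mbt replicate 2 there were 12 and 8 OSC-only ones. The shares of other genes' windows with a library left out are not given here. The changes are therefore not shown to be particular to hairpins.

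Known groups of miRNAs were then followed through the same libraries. Of 23 hairpins of miRNAs known from the ovary, 16 were open in all ovary and 10 in all OSC libraries, where 75 and 69 of all 260 hairpins were (28.8% and 26.5%). The 23 lay at 13 loci, so peaks shared by neighbours are counted more than once, and shares by locus were not computed. Of the 18 of them that were tested, 4 ranked higher in ovaries, all of the mir-9c cluster and so 1 locus, and 2 lower, mir-278 and mir-996, where 10.8% and 7.95% of all windows tested did. Among them mir-994 and mir-318 shared their strongest peak in each library. Its fold enrichment was 3.14, 5.76, 4.66 and 7.58 in OSCs and 11.7, 10.7, 9.68, 8.97 and 5.84 in ovaries. It was not the same peak in all libraries. In all OSC libraries and in vas-GFP replicate 3 it lay farther upstream of both hairpins than in the other ovary libraries. The folds of the groups overlapped through vas-GFP replicate 3 alone. The rank difference of 10.9 points did not pass (adjusted p = 0.620, exact permutation test). mir-275 and mir-305, beside each other on 2L, were open in all 9 libraries at 3.52- to 7.57-fold. mir-100, the first hairpin of the let-7 complex, had 4.69- to 8.87-fold peaks in all ovaries and 2.82- and 3.05-fold peaks in 2 OSC libraries, whereas mir-125 in the same transcript had none in any library. No peak was called at mir-989, which acts in border cell migration, in any library, and mir-184, a miRNA of the female germline, had 1 peak of 2.42-fold in Δl(3)mbt replicate 2. mir-310, whose cluster is known to act on Hedgehog signalling in the ovary, was open in all 9 libraries at 3.76- to 7.55-fold, and mir-311, mir-312 and mir-313 beside it in all ovaries at 4.07- to 4.82-fold and in replicate 1 of each OSC genotype at 2.82- and 2.22-fold.

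Of the 13 hairpins with the K box seed, 8 were tested, and 4 of these at 2 loci, the spi intron and mir-2b-1, ranked lower in ovaries and 0 higher, where 7.95% of all windows tested ranked lower and 10.8% higher. A peak in all 9 libraries was called at 2 of the 13, and at 19.2% of all hairpins scored. mir-13a, mir-13b-1 and mir-2c, which lie together in CR45911, had peaks of at most 2.45-fold in 3 OSC libraries and of 2.87-fold in w1118 replicate 1. mir-11 is described below with the knockout. mir-6-1 to mir-6-3 belong to the early embryo cluster, which is switched on at the onset of zygotic transcription. Of its 8 hairpins 7 shared a single peak of 2.33-fold in wild-type OSC replicate 1, and none was open in any ovary library.

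Hairpins of miRNAs known from the nervous system and muscle held no peak in the ovary. None of 10 neuronal hairpins was open in any ovary library, where 43.5% of all 260 hairpins were open in at least 1. In at least 1 OSC library 7 of the 10 were open, at folds of at most 3.08, where 76.5% of all 260 were. No peak was called at mir-124, mir-137 and mir-219. Of the 2 muscle hairpins mir-1 held peaks of 2.92- to 3.06-fold in 3 OSC libraries and mir-133 none. Among neuronal marker genes 4 of 5 were open in no ovary library, and among muscle markers 3 of 5 were open in all 5. Of 4 hairpins of the Hox clusters 3 were closed everywhere, as were 20.8% of all 260 hairpins. The 19 hairpins of clusters known from the testis lay at 6 loci and divided by locus. Of these 10 were open in no library, among them the 6 of mir-959 to mir-964 in an intron of DIP-theta. Another 5 were open in all ovaries, mir-975, mir-976 and mir-977 under a shared peak and mir-303 and mir-982 under another. Over all 260 hairpins the shares were 20.8% and 28.8%. mir-975, mir-976 and mir-977 had 4.82- to 8.28-fold peaks in ovaries and a peak of 1.94-fold, or 2.18-fold at mir-977, in wild-type OSC replicate 1 alone (difference 41.8 points, adjusted p = 0.0643, exact permutation test). Of 15 mirtrons 13 were open in at least 1 OSC library and 4 in at least 1 ovary library, where 199 and 113 of all 260 hairpins were (76.5% and 43.5%), and 0 were open in all 9. Without wild-type OSC replicate 1, 9 of the 15 mirtrons and 140 of the 260 hairpins were open in at least 1 OSC library.

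The genes for the protein machinery of the pathway were open throughout. Of the 7 that were matched, drosha, pasha, Dcr-1, loqs, AGO1, gw and Hen1, all were open at their 5′ end in all 4 OSC libraries and all except loqs in all 5 ovary libraries. At loqs the peaks were of 2.12- to 2.76-fold in OSCs and 2.53- to 3.07-fold in 3 ovary libraries. None passed the test between ovaries and OSCs. The lowest adjusted p was 0.0643 at AGO1 (exact permutation test), which ranked lower in ovaries (−29.9 points, ovary minus OSC). Its fold enrichment was 4.17 to 5.49 in OSCs and 4.82 to 5.59 in ovaries, so the folds overlapped.

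The third comparison asked whether hairpins changed when l(3)mbt, which encodes a chromatin protein that silences germline genes in somatic cells, was deleted. No hairpin passed. The log2 fold enrichment of the strongest peak was compared with limma between 2 Δl(3)mbt and 2 wild-type libraries after quantile normalization, at the 69 hairpins open in all 4 and over 8884 windows in all. None of the 69 hairpins and none of the other windows was called (percent called 0), and the smallest adjusted p (limma) was 0.288 over all windows and 0.999 at hairpins. At an unadjusted p under 0.05 the numbers were 0 hairpins and 244 windows. The differences at hairpins ran from −0.44 ± 0.21 (SE) at mir-308, in an intron of the ribosomal protein gene RpS23, to 0.43 ± 0.33 (SE) at mir-4942, with a median of −0.08. At mir-4942 the strongest summit of wild-type replicate 1 was another than in the other 3 libraries. At mir-9c, which ranked higher in ovaries, the values were 2.01 and 0 in Δl(3)mbt and 2.88 and 0 in wild-type OSCs. With 2 libraries a group, small changes were not detectable.

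By presence alone, 3 hairpins were gained (1.15%, against 0.533% of other genes' windows), with a peak in both Δl(3)mbt and neither wild-type library, and 3 at 2 loci were lost (1.15%, against 0.516%). The gained ones were mir-285 (2.58-fold or more in both), mir-276a (2.32- and 2.42-fold), known for its part in olfactory memory, and the mirtron mir-1012 in Lerp (1.71- and 2.79-fold). mir-285 and mir-276a were open in no ovary library. mir-1012 was open in both w1118 libraries, at 6.19- and 4.54-fold, with the summit more than 1 kb upstream of the hairpin in place of 110 and 141 bp downstream. The lost ones were mir-11 and mir-998, which share an intron of E2f1 and a peak of 3.00- and 3.57-fold in wild-type OSCs, and mir-4941 in a coding exon of Notum (2.24- and 2.06-fold, with the summit 779 bp upstream in replicate 1 and 35 bp downstream in replicate 2). mir-11 is known to hold back cell death driven by E2f1, and vas-GFP replicate 1 held a peak of 3.02-fold in the same window with its summit nearer to mir-998. These counts rested on the libraries chosen. Without wild-type replicate 1 the gained hairpins numbered 13, and without Δl(3)mbt replicate 2 they numbered 6. Without wild-type replicate 2 the lost hairpins numbered 62, and without Δl(3)mbt replicate 1 they numbered 10. The shares of other genes' windows with a library left out are not given here, so these changes are not shown to be particular to hairpins. No test was made of presence.

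The last comparison set the 2 ovary strains side by side. The number of ovaries was 6 in both w1118 libraries and in vas-GFP replicate 1, and 10 and 30 in the other vas-GFP libraries. At the 75 hairpins open in all 5 ovary libraries, 0 passed (percent called 0 over 7765 windows, limma), with 13 hairpins and 1173 windows at an unadjusted p under 0.05 and a smallest adjusted p of 0.183. The largest difference was at mir-2491, where vas-GFP exceeded w1118 ovaries by 1.49 ± 0.22 (SE) on the log2 scale (adjusted p = 0.183, limma), and the 3 vas-GFP libraries were above both w1118 libraries, at the different peaks described above. The median difference of the hairpins was 0.14 and that of all windows 0.01.

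The sequence CCGTTA, a form of the CNGTTA motif of the germline transcription factor Ovo, was counted within 100 bp of the summits of peaks at hairpins, on both strands. It was present at 8 of 88 peaks (9.09%) in the merged vas-GFP list and 7 of 81 (8.64%) in the merged w1118 list, where 5.86% and 6.05% of all peaks held it. In merged OSC lists it was present at 8 of 151 peaks (5.30%) for wild type and 6 of 116 (5.17%) for Δl(3)mbt, against 3.93% and 4.63% of all peaks. These are counts of letters and not of binding.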

How the data were processed

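The authors followed the omni-ATAC procedure and varied how many ovaries went into a library and how long tagmentation ran. Per the labels and the methods of the study, they used cutadapt 1.18, BWA (dm6), Picard 2.9.0 and SAMtools 1.9, and called peaks with MACS2 2.1.1.20160309, accepting a q-value up to 0.05, with no control stated. The deposited lists give for each peak a fold enrichment at its summit (a ratio to local background), a −log10 p-value, a −log10 q-value and a display score. The score, made by the authors' caller from the q-value, was not used. Values were not scaled between libraries, so that list length and fold depend on depth and signal. The authors' table of differential regions, with their fold changes and FDR, was not used.

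Hairpins came from Ensembl release 115 (BDGP6, the dm6 assembly) and mature sequences from RefSeq, with hairpins on 2R not looked up. The members, lists and comparisons were chosen with earlier results of these data known, and list members came from general knowledge of these miRNAs. Hairpins were named when they passed a test (by the largest difference, 1 leading hairpin per locus), were open in 1 tissue or OSC genotype only, had 1 of the 10 highest mean folds, or served as examples of a list; others are said to be chosen afterwards. Pileup and background were recovered from fold and p-value within 0.001. Windows needed 1 bp of overlap, and the background tiles were 2092 bp long. Tests were run in Python 3.11.15 (NumPy 2.4.6, pandas 2.3.3) and R 4.3.3 with limma 3.58.1 at an adjusted p of 0.05, and were tested on simulated data. Figures were drawn with Matplotlib 3.10.9. Windows of 0.5 and 2 kb, peaks with a −log10 q of at least 10, summits inside the window, equal lists, other scales and each library left out were tried as alternatives.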

Additional observations from a re-analysis of the deposited data

How the results depend on the processing

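Leaving out any library, or using wild-type OSCs only, left 0 hairpins called between ovaries and OSCs in either direction, since the exact test then allows no smaller p than 0.0179, 0.0286 or 0.0476. The same holds for windows open in at least 1 library (0 and 0). These settings say nothing about stability. With log2 folds over the full lists 56 hairpins were higher (53.8% of those tested, against 47.7% of all windows), and with limma on ranks 26 (25.0%, against 12.6%). The numbers lower were 11 with 2 kb and 4 with peaks of −log10 q of at least 10. The number of hairpins open in all libraries was 85 with 2 kb and 50 to 56 with a library left out. The number open in none was 96 with 0.5 kb, 23 with 2 kb, 131 with −log10 q of at least 10, 129 with equal lists and 54 to 99 with a library left out. Ovary-only hairpins numbered 0 with 2 kb, 1 with −log10 q of at least 10, 9 with equal lists and 4 to 11 with a library left out. Against wild-type OSCs alone they numbered 4, which became 1 with 2 kb, 12 with equal lists and 4 to 23 with a library left out. OSC-only hairpins numbered 2 with the summit inside the window and 5 to 12 with a library left out. Gained hairpins numbered 0 with 2 kb or with −log10 q of at least 10 and 3 to 13 with a library left out, and lost ones 3 to 62. The mean share of open hairpins between genes was 38.9%, and it was 27.2% with 0.5 kb, 51.6% with 2 kb and 27.8% with −log10 q of at least 10. It was 35.7% to 40.4% with a library left out, and inside genes 35.5% to 41.7%. Where no share stands beside a count, that of other genes' windows under the same setting is not given here. Such changes are not shown to be particular to hairpins. The cause was not tested.

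With the replicate number as a block, 0 hairpins were called in the knockout comparison in either direction (0 and 0), but 59 windows rose and 41 fell. The labels give no pairing, and with 2 pairs the correlation of deviations was 0.535. The peaks inside the lists titled replicate 2 carry other replicate numbers in their names, 3 for wild type and 4 for Δl(3)mbt OSCs, so the shared number may mark nothing. With a library left out, 0 to 1 hairpins were higher and 0 to 1 lower in Δl(3)mbt OSCs, and 0 to 1 higher in vas-GFP ovaries. Values of 27 single hairpins were followed under the settings that kept all libraries. Of these values 159 were counted as unchanged, 13 newly passed, 27 no longer passed and 1 reversed, mir-996 with 2 kb (1.84 points). Reversals were counted only at hairpins called in the main test. A change of sign at a hairpin not called there was counted as unchanged, so the 159 need not all have kept their direction. The values that no longer passed include every called hairpin under windows open in at least 1 library, where no window could pass. Those losses say nothing about stability. Groups of 2 libraries limit what could be detected.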
